A study of Homo sapiens with 7 samples.

Results

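Broad GATA6 peaks of modest height are the stretches of the genome where GATA6 signal in LS174T cells ran over 400 bp or more without reaching 40 fragments at its highest point. They were selected on 2 measured values of the deposited peak list, a length of at least 400 bp and a height under 40 fragments, on chromosomes 1 to 22 and X. This rule held for 547 of 7562 peaks on these chromosomes (7.23%), and for 7.67% of the 7131 peaks under 40 fragments high. The whole list had 7568 peaks. The height is the deposited pileup, the number of fragments that cover the summit, and the summit is the position of highest coverage within a peak.

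LS174T is an established human colorectal carcinoma cell line, and no genotype change, drug or time point separates the groups of the study. It comprised 7 libraries, of which 3 were precipitated with an antibody against GATA6, 1 was input DNA without antibody, and 1 each was made for H3K27ac, H3K4me3 and H3K4me1. The list used here covers GATA6 and gives each peak 1 value for GATA6 as a whole. The spread between the 3 libraries therefore cannot be given for any value. Peaks of 1 list are not replicates, and no test was run: differences are given as sizes, with exact intervals at 95% that cover counting error only. The interval of a difference covers the counting error of the broad peaks and takes the comparison value as known. The histone and input libraries were not analysed here.

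GATA6 belongs to the GATA family of zinc-finger transcription factors. In the intestine it is expressed in the epithelium, where it takes part in renewal and differentiation. It binds DNA at short GATA sequences, often within enhancers that hold sites for several factors. In ChIP-seq, the fragments pulled down around 1 short site overlap at that site. The coverage they give is therefore highest there and falls off on both sides within about 1 fragment length. Peak length and the place of the summit within the peak thus describe how the fragments lie, apart from how many there are.

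The broad peaks were mostly only a little over the limit. Their median length was 461 bp, with quartiles of 422 and 525 bp, and 374 of the 547 were shorter than 500 bp. Above that, 173 reached 500 bp, 60 reached 600 bp, 20 reached 700 bp, 9 reached 800 bp and 3 reached 900 bp. They covered 267311 bp, or 12.8% of all the sequence covered by peaks on these chromosomes. The lengths fell off evenly across the limit: 35 peaks lay just outside it, from 395 bp up, and 28 peaks of 400 to 404 bp just inside, with median heights of 20 and 19.5 fragments. At the other limit, the 9 broad peaks with a height of 39 had a median length of 438 bp (406 to 810 bp). The 16 long peaks with a height of 40 had a median of 451.5 bp (402 to 699 bp).

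Their heights ran from 9 to 39 fragments with a median of 24. A height of 24 carries an exact Poisson interval of 15.4 to 35.7, so single heights were imprecise and many neighbouring ranks among the members were not resolved. Broad peaks were a larger share of the higher peaks. Of 789 peaks under 10 fragments high, 1 was broad (0.127%, exact interval 0.00321% to 0.704%). The share was 2.15% at 10 to 14 fragments, 6.69% at 15 to 19, 11.0% at 20 to 24, 21.5% at 25 to 29, 24.1% at 30 to 34 and 28.2% (22.6% to 34.3%) at 35 to 39. Among the 431 peaks of 40 fragments or more, 201 (46.6%) were 400 bp or longer. Length and height chose the members, so these values describe the rule. Within the members the remaining relation was weak, with a Spearman rho of 0.14 across 547 peaks.

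**Figure D1:**
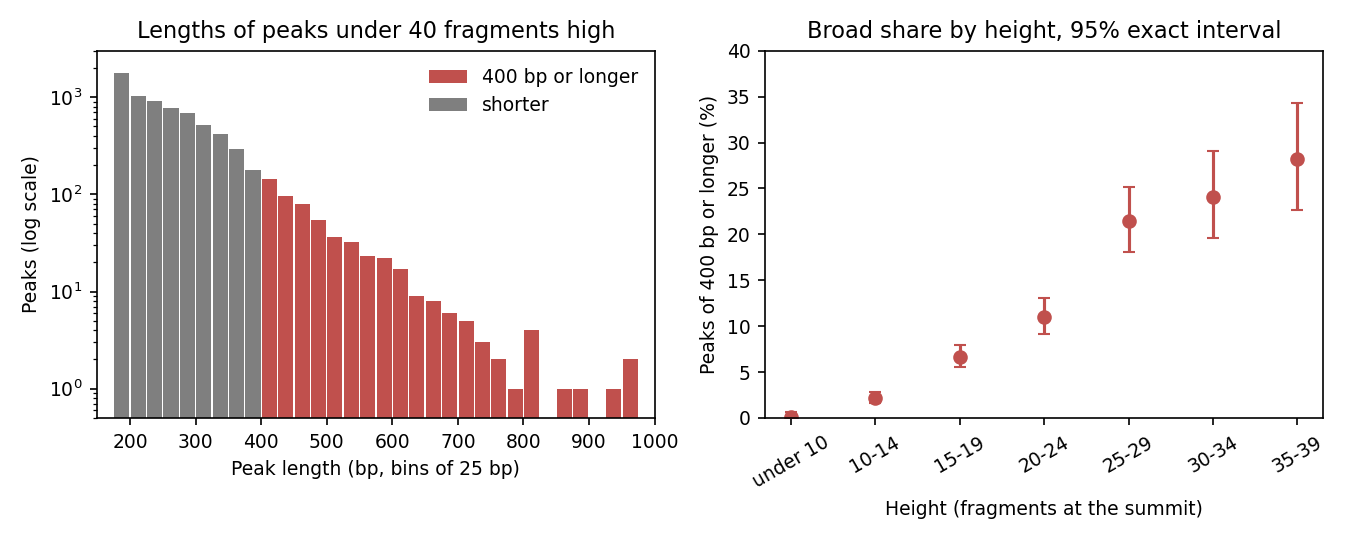
Left, number of peaks under 40 fragments high by length in bins of 25 bp, on a log axis, with the 547 peaks of 400 bp or longer in red. Right, the share of peaks of 400 bp or longer by height class with its exact 95% interval, which goes from 0.127% under 10 fragments to 28.2% at 35 to 39 fragments.

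Since heights differ, the shorter peaks used for comparison (6584 peaks under 400 bp and under 40 fragments high) were weighted so that each height had the share it had among the broad peaks. Weighted in this way, they counted as an effective 2578 peaks with a median length of 288 bp.

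The longest members show the kinds of shape in the set. The longest, chr2:224030240-224031196 (hg19), was 957 bp long and 25 fragments high (exact Poisson interval 16.2 to 36.9). Its summit had 562 bp before it and 394 bp after it, so both flanks were long. The peak at chr6:111872746-111873697, 952 bp long and 23 fragments high, was nearly symmetric, with its summit at 47.2% of its length. Another of this kind, chr11:34621870-34622815, measured 946 bp at a height of 28 with flanks of 549 and 396 bp. The remaining ones were mostly one-sided. At chr8:35505049-35505933, 885 bp long and 37 fragments high, the summit lay 173 bp from the start and 711 bp from the end. At chr3:110373512-110374372, 861 bp long and 27 fragments high, the order was turned, with 704 bp before the summit and 156 bp after it.

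Next in length came chr19:33795790-33796610 with 821 bp at a height of 33, and chr6:43894410-43895228 with 819 bp at a height of 34. Both had their summit at 73% of their length, 219 bp from the end. The peak at chr15:62427713-62428522 was 810 bp long and, at 39 fragments, the highest of the 10. Its longer flank of 587 bp followed the summit. The last in this order were chr8:128754090-128754889, with 800 bp at a height of 23 and flanks of 337 and 462 bp, and chr2:234597721-234598498, with 778 bp at a height of 25. The latter had 652 bp before its summit and 125 bp after it. Of these 10 peaks, 4 had a flank of at least 300 bp on both sides, and the other 6 had a shorter flank of 125 to 222 bp.

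Summits of broad peaks lay off centre more often than those of shorter peaks of the same heights. The summit was in the middle 20% of the peak, from 40% to 60% of its length, in 155 of 547 broad peaks (28.3%, exact interval 24.6% to 32.3%). Among shorter peaks weighted to the same heights it did so in 72.5%. In the first or last 25% of the length it lay in 79 broad peaks (14.4%, 11.6% to 17.7%) against 2.26%. The median distance between summit and centre was 68.5 bp (62.5 to 74.5 bp, exact interval of the median) against 16 bp, or 15.0% against 5.88% of the length. A longer peak leaves more room for its summit, so distances in bp can grow with length. The share of length has the same range for all, but it is computed from the flanks that make up the length. At the same heights the median nearer edge was 147 bp in peaks from 300 bp to under 350 bp, and 168 bp from 500 bp. With the nearer edge so nearly level, greater length by itself moves the summit off centre as a share of length. The length limit therefore favours this difference, and what remains beyond it was not tested. Among broad peaks the share of length by which the summit was displaced rose with length (rho = 0.30) and fell with height (rho = −0.24), both across 547 peaks.

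The difference was present in each height class that held more than 1 broad peak. At 10 to 14 fragments the summit was in the middle 20% in 18.5% of broad peaks and 49.7% of shorter ones. At 35 to 39 fragments the values were 39.7% and 85.5%. Summits were thus more central at 35 to 39 than at 10 to 14 fragments in both kinds.

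The summits of broad peaks were spread to both sides of the centre. Between 30% and 40% of the length lay 126 of the 547 summits, between 40% and 50% lay 59, between 50% and 60% lay 95, and between 60% and 70% lay 109. The low band was thus on the start side of the centre. In the weighted shorter peaks 44.1% lay between 45% and 55%. The summit was nearer the start in 260 broad peaks (47.5%, exact interval 43.3% to 51.8%) and nearer the end in 286, while 1 was exactly central. Among shorter peaks 54.7% had it nearer the start, with a median offset of only 2.5 bp toward it. In the first 25% of the length lay 40 summits and in the last 25% lay 39, so the strongly one-sided broad peaks did not favour an end. The strand of the underlying sites is unknown, so start and end have no biological orientation.

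**Figure D2:**
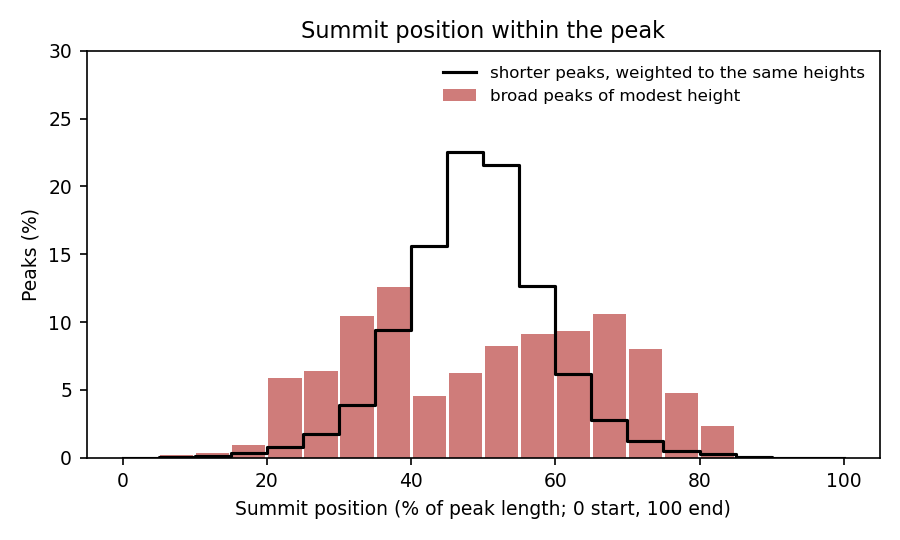
Share of peaks by summit position, in percent of the peak's length from start to end, for the 547 broad peaks (bars) and for shorter peaks weighted to the same heights (line). The line has 1 central maximum, whereas the bars are low between 40% and 50% and higher on both sides.

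Measured in bp, the distance from the summit to the nearer edge levelled off with peak length. The distances to both edges together span the peak. Once the nearer edge is level, the farther one therefore has to grow with the length class, and its growth is no separate result. With each length class weighted to the same heights, the median distance from the summit to the nearer edge was 96 bp in peaks under 250 bp, 121 bp from 250 bp to under 300 bp and 147 bp from 300 bp to under 350 bp. From there it changed little, at 149, 158, 162 and 168 bp in the classes from 350, 400, 450 and 500 bp. The distance to the farther edge was 172 bp in the class from 300 bp and went on to 222, 262, 308 and 392 bp. The median displacement of the summit was smallest in the class from 300 bp, at 3.63% of the length, against 6.68% under 250 bp and 20.0% from 500 bp. Displacement is computed from both edges, so its rise above the class from 300 bp is no separate result either. By the share of summits in the middle 20%, the class from 250 bp came first with 82.4%, and the class from 300 bp had 78.6%. The classes from 450 and from 500 bp lacked heights that 13 and 15 of the members had, and the class under 250 bp lacked those of 41.

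The smallest length in the list, 175 bp, gives a scale for these distances. It was read as the length to which fragments were extended, because the steps of the local background match it, although no source states that length. Fragments of 175 bp that cover a summit reach at most 174 bp to either side. A longer flank therefore holds fragments that do not cover the summit. Every broad peak had such a flank on at least 1 side, since its length requires it. On both sides the edge was at least 175 bp away in 176 of 547 broad peaks (32.2%, exact interval 28.3% to 36.3%), against 1.07% of shorter peaks of the same heights, of which few are long enough. The other 371 had 1 side within that reach. Peaks extended on both sides were somewhat higher, with a median height of 28 against 22 fragments, and had the same median background of 1.22 fragments.

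**Figure D3:**
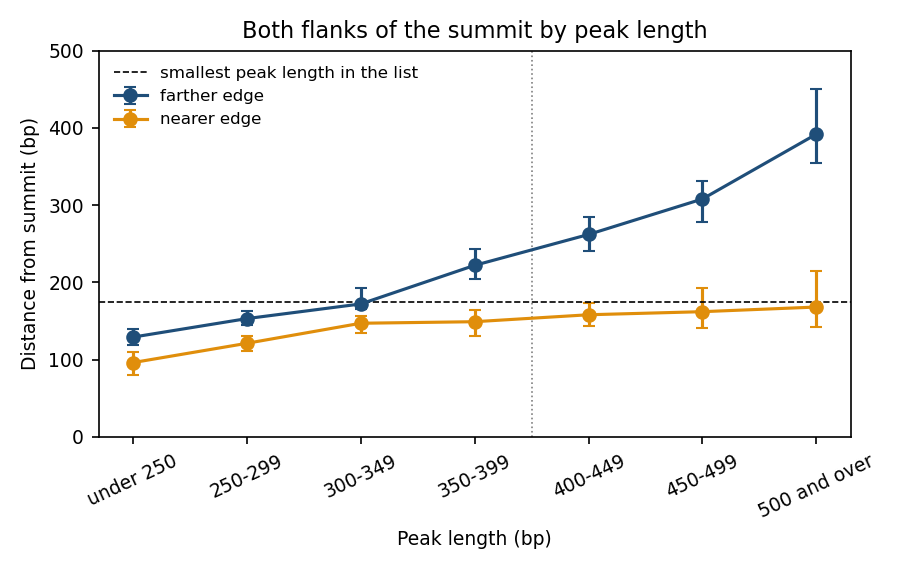
Distance from the summit to the nearer and the farther edge in bp, by peak length class, as median and quartiles of peaks under 40 fragments high, weighted to the heights of the broad peaks. The nearer edge stays between 147 and 168 bp from 300 bp on, below the smallest peak length of 175 bp (dashed). The farther edge goes from 172 to 392 bp, which the length classes require once the nearer edge is level.

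The 79 broad peaks with a summit in the first or last 25% were longer and lower than the other 468, with median lengths of 534 and 452 bp and median heights of 20 and 25 fragments. Of these 79, 50 were 500 bp or longer, against 123 of the 468. Their median farther edge lay 408 bp from the summit, against 287 bp, which follows from their choice by summit position and from their length. The local background, the control level against which the height is set, had medians of 1.40 and 1.13 fragments in the 79 and the 468, and its part in the summit positions was not tested. The summit nearest a start was at chr2:88315576-88316170, a peak 595 bp long and 10 fragments high (exact Poisson interval 4.80 to 18.4), at 8.75% of its length. It was followed by chr1:44733068-44733633 (566 bp, height 25) at 14.3% and chr12:71556741-71557348 (608 bp, height 20) at 15.0%. Nearest an end were the summits of chr1:232814136-232814565 (430 bp, height 14) at 84.8% and chr10:25190859-25191386 (528 bp, height 16) at 84.1%. At heights of 10 to 16 fragments a few fragments can move a summit, so the exact place of these is uncertain.

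Local background, computed as height divided by the deposited fold, hardly separated the broad peaks from shorter ones of the same heights. Both had a median of 1.22 fragments with quartiles of 0.998 and 2.00. It was above the median of all peaks, 1.05, in 53.4% of the broad peaks (exact interval 49.1% to 57.6%) and in 58.4% of the shorter ones. The sign of this small difference was not stable: with a limit of 500 bp, or against the shorter peaks from 300 bp up only, the broad peaks were the higher ones, by 2.64 and 2.24 percentage points. Without weighting to the heights they were higher by 12.4 points. Height and background enter the same score, so background is not taken as independent of the rule that chose the members. Among the members, background rose slightly with length (rho = 0.16 across 547 peaks).

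Background values lay on steps that correspond to whole control fragments in windows of 3 sizes or on a floor of 0.489 fragments. The value fitted the narrowest window in 241 broad peaks (44.1%, against 46.2% in shorter peaks), a step that fits a window of 1 kb was found in 200 (36.6% against 39.9%), one that fits only a window of 10 kb in 89 (16.3% against 11.8%), and 17 (3.11% against 2.10%) were at the floor. Each step of the 1 kb window is also a step of the 10 kb window, so the values of the 200 do not tell these windows apart. In the narrowest window 86 broad peaks had 1 control fragment, 93 had 2 and 62 had 3 or more. The narrowest window was tried first, so values that also fit a wider one were counted under it. The highest background, 6.98, was at chr16:69430409-69430817, so a height of 31 reached a fold of only 4.44. This value equals 7 control fragments in the narrowest window but is also a whole step of the wider windows, so its window is not known. The next highest was at chr2:198012620-198013025 with 5.99, a height of 39 and a fold of 6.52. At the floor, the longest broad peak was chr6:43894410-43895228 with a fold of 69.48. It was followed by chrX:34046461-34047111 and chrX:122937166-122937741 with 651 and 576 bp, each 26 fragments high at a fold of 53.13. Low background was not particular to these 2 peaks. Peaks under 40 fragments high on chromosome X had a median background of 0.532 fragments, against 1.05 for all peaks.

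The fold of broad peaks had a median of 18.0 (exact interval of the median 16.6 to 19.1), against 16.5 in shorter peaks of the same heights, and 86.8% against 80.8% reached a fold of 10. Their −log10 p had medians of 21.4 and 21.0. These are the authors' scores, which restate height and background.

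Broad peaks had another GATA6 peak within 10 kb slightly more often than shorter peaks of the same heights. Counted between summits, 184 of 547 had one (33.6%, exact interval 29.7% to 37.8%), against 28.5%. The direction was not the same at all heights: at 25 to 29 fragments the shares were 29.9% and 30.4%, and at 30 to 34 fragments 25.9% and 32.5%. By length class at the same heights, the share was 28.3% under 250 bp, 22.5% from 250 bp, 29.7% from 300 bp and 36.2% from 350 bp, just under the limit. The 3 broad classes had 30.1% to 33.9%, so the share rose from 250 to under 400 bp and did not rise further across the limit. With only peaks of 20 fragments or more counted as neighbours, the difference of 5.17 percentage points became 2.11, and its interval then included 0. The difference was also near 0 within 1 kb, with 7.68% against 7.54%, and within 5 kb, with 20.7% against 20.5%. It was 1.63 percentage points within 3 kb, 3.15 within 7 kb, 6.20 within 20 kb, 6.63 within 50 kb and 0.813 within 500 kb. Each share counts all shorter distances too, including the deficit within 0.5 kb, so the distance at which the difference begins is not resolved. The median distance to the nearest summit was 27.1 kb in broad peaks (21.2 to 36.9 kb) and 38.2 kb in shorter ones. Within 0.5 kb lay a neighbour for 1.28% against 3.37%, where the length of a broad peak itself leaves little room. Within 10 kb, 41 broad peaks had 2 or more neighbours (7.50% against 6.16%).

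**Figure D4:**
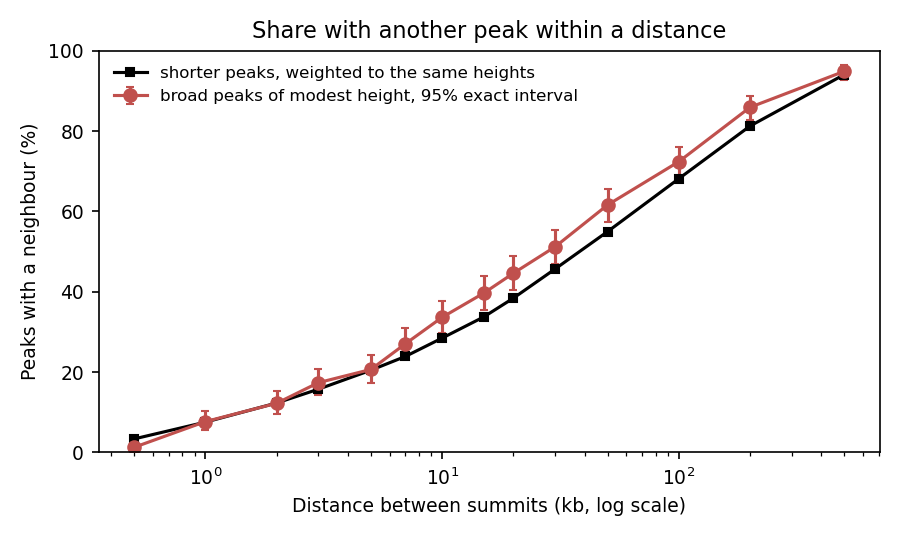
Share of peaks with another peak of the list within a given distance between summits (log axis), for broad peaks with exact 95% intervals (red) and shorter peaks weighted to the same heights (black). The curves lie close together from 1 to 5 kb and differ by 5.17 percentage points at 10 kb and 6.63 at 50 kb.

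The neighbours were ordinary peaks. In the 184 broad peaks with a neighbour, the nearest one had a median height of 16 fragments and a median length of 260 bp, against 17 fragments and 260 bp for shorter peaks of the same heights. It was higher than the broad peak in 58 cases (31.5% against 29.8%) and was itself broad and modest in 14 (7.61% against 8.31%). The longer flank pointed toward the neighbour in 98 of 184 (53.3%, exact interval 45.8% to 60.6%), against 49.2%, a value inside that interval. With neighbours within 50 kb the difference was 5.79 percentage points, with an interval of 0.312 to 11.2. That interval leaves out the counting error of the shorter peaks and its lower end is near 0, so whether the flanks differ there is not settled. Within 1 kb it did so in 21 of 42 (50%, 34.2% to 65.8%). Among the 79 peaks with a summit in the first or last 25%, 26 (32.9%, 22.7% to 44.4%) had a neighbour within 10 kb, against 33.8% of the other broad peaks.

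Broad peaks lay next to each other about as often as shorter peaks lay next to them. The nearest peak within 10 kb was a broad one for 2.56% of broad peaks (exact interval 1.41% to 4.26%) and for 2.37% of shorter peaks of the same heights. In all, 8 pairs of broad peaks were within 10 kb of each other, with no group of 3. The closest pair was chr1:28836618-28837303 (686 bp, height 18) and chr1:28837419-28837884 (466 bp, height 15), with summits 537 bp and edges 115 bp apart, and in both the longer flank faced away from the other. On the same chromosome, chr1:23883020-23883536 (517 bp, height 15) and chr1:23883599-23884214 (616 bp, height 14) had only 62 bp between their edges, and the longer flank of each faced the other. A further pair, chr12:120729261-120729682 (422 bp, height 14) and chr12:120730566-120730972 (407 bp, height 13), had summits 1341 bp apart and faced each other with their longer flanks. On chromosome 8, chr8:128413055-128413549 (495 bp, height 30) and chr8:128415123-128415595 (473 bp, height 22) had summits 2262 bp apart and also faced each other with their longer flanks. The fifth pair, chr6:64788465-64788912 and chr6:64794032-64794584, was 5659 bp apart, and only the second of them had its longer flank toward the other.

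The most neighbours within 10 kb, 5, were those of chr12:71556741-71557348, which had its summit at 15.0% of its length. Its background of 3.99 fragments fitted 4 control fragments in the narrowest window. Next was chr1:169104225-169104995, 771 bp long and 20 fragments high, with 4 neighbours, the nearest of them with its summit 408 bp and its edge 146 bp away. The third, chr14:55588833-55589271 (439 bp, height 13), also had 4.

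By chromosome, broad peaks made up between 3.03% of the modest peaks (chromosome 22, 2 of 66) and 11.8% (chromosome 15, 27 of 229, exact interval 7.92% to 16.7%). The share was between 5% and 10% on 18 of 23 chromosomes. Chromosome 15 was the only one whose interval left out the share of all chromosomes, 7.67%. From its heights alone 20.9 broad peaks were expected there, which is 9.12% and lies within that interval. With a limit of 500 bp the share was 6.11% where the heights gave 3.03%, an excess of 3.08 percentage points with an interval of 0.348 to 7.01, so the expected value then fell outside. Its broad peaks had a median length of 507 bp and a median background of 2.00 fragments, while modest peaks there had 1.40. Chromosome 2 held the most broad peaks, 63, where its heights gave 49.6. Chromosome 1 held 59 against 64.4 expected.

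Chromosome X had a low share, 7 of 166 (4.22%, exact interval 1.71% to 8.50%), against 7.75% on the autosomes, and its heights gave 7.14. Chromosomes 17, 18 and 16 held 11, 7 and 9 where 15.9, 10.3 and 12.3 were expected, and chromosomes 20 and 21 held 12 and 6 where 8.24 and 4.16 were expected. All of these expected values lie within the counting intervals, and the order of chromosomes by share was not resolved.

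**Figure D5:**
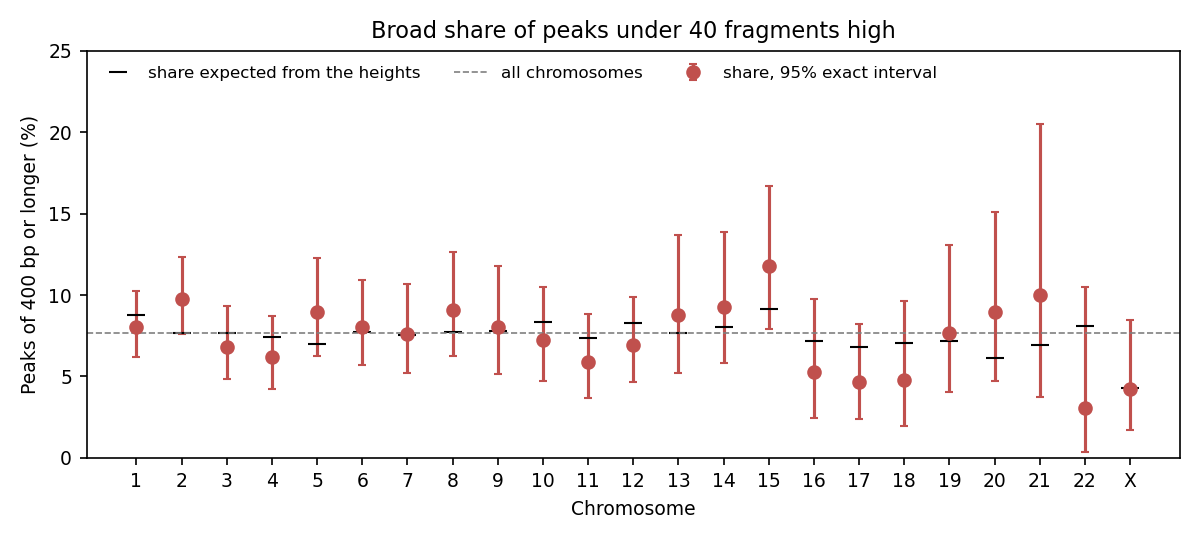
Share of peaks under 40 fragments high that were 400 bp or longer, by chromosome, with exact 95% intervals, beside the share expected from each chromosome's peak heights (black marks) and the share of all chromosomes, 7.67% (dashed). Chromosome 15 is highest at 11.8%, and chromosome X, at 4.22%, lies at the share its heights give.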

How the data were processed

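GATA6 ChIP-seq of LS174T cells was used as 1 deposited list of 7568 peaks. CASAVA 1.8, BWA 0.5.9-r16 and the build hg19 are named for these libraries, per the submitters' processing notes. Not given in the sources used here are the peak caller, its control and any pooling of the 3 libraries, so depth per library is unknown. Per the file headers, the pileup is a coverage signal (whole fragments, not scaled), the fold a linear ratio over a local background, and p-value and q-value are −log10 values. All are the authors' own. Positions count from 1.

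Summit position was (summit − start)/(length − 1), from 0 to 1. Background was pileup over fold, set to the nearest step of whole control fragments (within the rounding of the fold plus 0.0005 of the value), which took all 7568 peaks. Shorter peaks were weighted to the members' pileups. Neighbours were peaks with summits within 10 kb. Expected counts per chromosome applied the broad share at each pileup. Intervals are exact binomial, Poisson or order-statistic ones at 95%. For a difference, the interval of the broad peaks was shifted by the comparison value, whose own error is not included. All intervals hold counting error alone, and without molecular identifiers PCR copies cannot be told from separate fragments. Python 3.11.15 and scipy 1.17.1 were used. The functions for summit position, nearest neighbours and weighting were tested on simulated data. Those for background steps, intervals and expected counts were not.

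Members, limits and comparisons were chosen with earlier results of these data known. Named regions are the 10 longest members, the 5 nearest each end by summit, the 5 highest and 5 lowest in background, the 5 closest pairs, and the 3 with most neighbours, of which the leading ones are printed. No sequence, motif or gene annotation of hg19 was used here, so the planned motif and annotation comparisons were not run, regions are given by position and no sequence is printed.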

Additional observations from a re-analysis of the deposited data

Results flagged for a closer look

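Outside chromosomes 1 to 22 and X, 1 of 6 peaks met both limits. It lay on chromosome Y from 59019658 to 59020100, was 443 bp long and 11 fragments high at a fold of 19.69, and had its summit at 33.3% of its length. It entered no comparison.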

How the results depend on the processing

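The choice of limits set the number of broad peaks: 1020 with a limit of 350 bp and 173 with 500 bp, in place of 547. Fewer summits in the middle 20% than in shorter peaks of the same heights held in direction under all 9 alternatives, from −34.95 percentage points at 350 bp and −48.31 at 500 bp to −29.61 unweighted, in place of −44.18. Each alternative kept a length limit between the 2 kinds of peak, and this share depends on the same 2 flanks that make up the length. The shared direction is therefore no independent check. The farther edge differed by 100 bp (limit of 350 bp), 228 bp (500 bp), 155 bp (unweighted), 129 bp (heights of 20 to 39) and 108 bp (against shorter peaks from 300 bp), in place of 138 bp. Its direction was the same under all 9, but the length limit sets that direction, so this is no check. The smallest farther edge of a broad peak was 204 bp, above the median of 160 bp in shorter peaks of the same heights. Background above the median of all peaks went from −5.07 points to 2.64 (500 bp), 12.45 (unweighted) and 2.24 (against shorter peaks from 300 bp); unweighted comparison peaks were lower peaks, and the cause of the others was not tested. The excess of neighbours, 5.17 points within 10 kb, was 0.136 within 1 kb, 0.191 within 5 kb, 2.11 with only peaks of 20 fragments or more as neighbours, and 7.82 with a limit of 350 bp. The longer flank pointed toward the neighbour 12.7 points more often than in shorter peaks with a limit of 500 bp (61.7% of 60 peaks), in place of 4.06. It did so 7.04 points more often within 5 kb and 5.79 within 50 kb (interval 0.312 to 11.2), and the sign turned at 350 bp (−0.898) and under a height limit of 30 (−0.285). The excess on chromosome 15 over its heights was 1.21 to 3.73 points in place of 2.67. Its interval, which included 0, left it out at 500 bp (3.08 points). Without the heights, the excess was 4.12 points over the share of all chromosomes and 3.70 as a share of all peaks, and both intervals left out 0. Chromosome 15 had the highest share of 23 chromosomes, and none of these intervals allows for that choice. No paired analysis was possible because the list holds no value per library, and for the same reason no library could be left out. Heights of 9 to 39 fragments limit each summit, and fragments in the flanks are not listed.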
